A study of Mus musculus with 24 samples.

Results

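The 9 genes described here are 4 guanylate-binding protein genes, *Gbp2*, *Gbp3*, *Gbp7* and *Gbp9*, the 3 transcription factor genes *Irf1*, *Irf9* and *Stat2*, and the interferon-induced genes *Ifi35* and *Isg15*, all of which lie outside the major histocompatibility complex. They were picked by name from the 34745 genes of the table, with earlier results of the M-Z- against M-Z+ comparison of these same embryos known. That comparison is therefore given for them as a description, without p-values. RNA-seq was performed with whole E13.5 embryos of the 129/DBA hybrid strain, 6 labelled *Zfp57*-/+ (M-Z+) and 6 labelled *Zfp57*-/- (M-Z-), with 1 library per embryo. Both kinds of embryos were derived from *Zfp57*-/- mothers on the 129 background and *Zfp57*+/- fathers mainly on the DBA/2J background. M-Z+ embryos thus lacked maternal *Zfp57* and carried a wild-type paternal allele, whereas M-Z- embryos lacked both maternal and zygotic *Zfp57*, and no embryo with maternal *Zfp57* is among these 12 libraries. The deleted allele was constitutive and not confined to any cell type. The labels give neither sex nor litter, and p-values measure the spread between these embryos.

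ZFP57 is a zinc finger protein that binds methylated imprinting control regions and maintains their DNA methylation. Interferons bind cell surface receptors whose JAK kinases phosphorylate STAT proteins. STAT2 and IRF9 are parts of a complex that binds the interferon-stimulated response element (ISRE) of type I interferon targets, the gamma-activated site (GAS) is found at interferon-gamma targets, and IRF1 binds sites that resemble an ISRE. Guanylate-binding proteins are large GTPases, best known from infected macrophages, where they attack the vacuoles and membranes of intracellular pathogens.

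Of the guanylate-binding protein genes, *Gbp2*, *Gbp3* and *Gbp7* are neighbours on chromosome 3 and *Gbp9* belongs to a second cluster on chromosome 5. To show the letters that link these genes to the factors above, the RefSeq sequences from 250 bases before to 50 bases after each annotated start site (GRCm38.p6) were searched on both strands for the ISRE letters GAAANNGAAA and the GAS letters TTCNNNGAA. Such sequences were found for 8 of the 9 genes in 11 entries, and *Gbp9* had no entry. The ISRE letters were present for 5 of these 8 genes, in 5 of the 11 entries, and the GAS letters for 3 genes, in 3 entries. Of all 32851 sequences of this length, counted per entry, 3.44% held the ISRE letters and 8.3% the GAS letters. Of 89 such sequences for the interferon pathway genes listed further on, 32.6% held the ISRE letters. The matches that lie before the start site follow on the strand of the gene, with the matching letters in capitals, for *Gbp2* (chr3:142620594-142620623, plus strand), *Gbp3* (chr3:142559992-142560021, plus strand), *Gbp7* (chr3:142530273-142530302 for the ISRE letters, chr3:142530220-142530248 and chr3:142530239-142530267 for the GAS letters, plus strand), *Irf1* (chr11:53769914-53769942, plus strand), *Stat2* (chr10:128270266-128270295, plus strand) and *Isg15* (chr4:156200871-156200900, minus strand).
Gbp2 ISRE: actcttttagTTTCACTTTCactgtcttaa
Gbp3 ISRE: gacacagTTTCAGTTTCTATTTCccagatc
Gbp7 ISRE: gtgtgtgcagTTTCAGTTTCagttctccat
Stat2 ISRE: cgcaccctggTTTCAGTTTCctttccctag
Isg15 ISRE: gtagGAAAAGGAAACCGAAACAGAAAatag
Gbp7 first GAS: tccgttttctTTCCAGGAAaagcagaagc
Gbp7 second GAS: aagcagaagcTTCTCAGAAagtcagcaca
Irf1 GAS: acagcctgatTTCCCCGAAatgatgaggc
In *Gbp3* the capitals join 2 overlapping matches and in *Isg15* they join 3. The ISRE letters of *Gbp2*, *Gbp3*, *Gbp7* and *Isg15* all lay within 78 bases of the start site, whereas those of *Stat2* began 222 bases before it. *Gbp7* was the gene with both kinds of letters. Neither entry of *Irf9* held either motif, and the GAS letters of *Ifi35* lay after its start site. A match describes these letters and not a bound site.

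**Figure D1:**
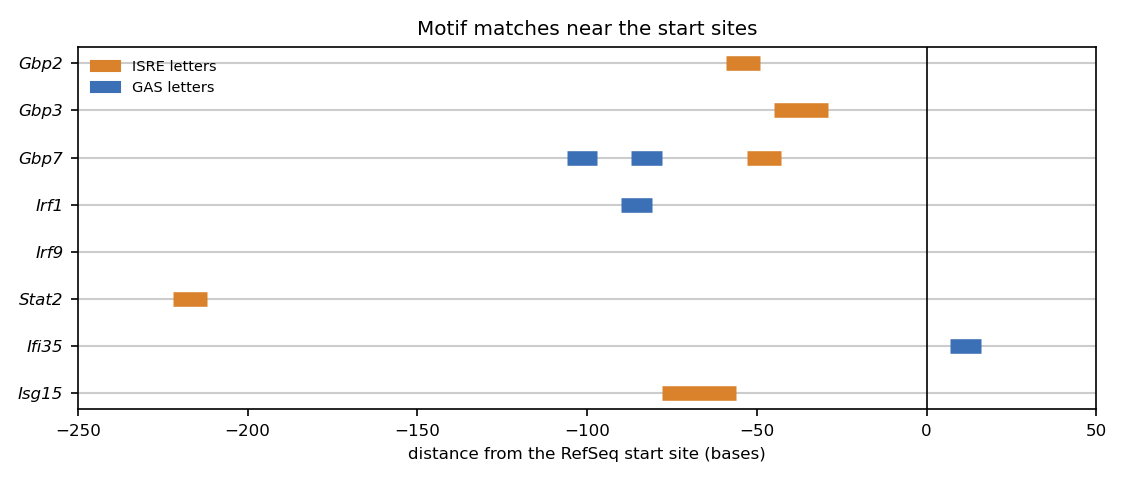
Matches to the ISRE letters (orange) and the GAS letters (blue) for the 8 genes with a RefSeq entry, against the distance from the annotated start site in bases (0, black line). The ISRE matches of *Gbp2*, *Gbp3*, *Gbp7* and *Isg15* sit within 78 bases before the start, the GAS matches of *Gbp7* lie from 106 to 79 bases before it, and *Irf9* has none.

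Total counts per library ranged from 12005145 to 19216288, and 16026 genes, 8 of the 9 among them, had enough counts for the filter of edgeR. *Isg15* did not pass it. Counts were normalized for library size and are given as CPM, which puts libraries of unequal depth on one scale. Neural, cardiac, muscle, cartilage, liver, lens and skin markers were all present in every embryo. Gene-level counts of *Zfp57* ranged from 19.0 to 40.7 CPM in M-Z+ embryos and from 17.8 to 27.8 CPM in M-Z- embryos. One count covers the whole gene, so the deleted part was not seen separately and *Zfp57* did not check the labels. M-Z+ replicate 3 stood apart in its sex-linked genes, with 0.152 CPM of *Xist* and no count of *Ddx3y*, whereas each of the other 11 embryos had either 847 CPM or more of *Xist* or 45.5 CPM or more of *Ddx3y*.

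All 9 genes were transcribed at low to moderate levels in both genotypes. Per length of transcript, *Stat2* was the highest of them with 26.8 ± 3.23 TPM (a level corrected for gene length, SD over 12 embryos), above 62.2% of the tested genes. *Irf9* (7.93 ± 1.43 TPM) and *Ifi35* (7.21 ± 1.75 TPM) followed, and *Irf9* was above *Ifi35* in 6 of 12 embryos, so their order was not set beyond the spread. *Ifi35* was above *Gbp2* in 11 embryos. *Gbp2* (4.17 ± 1.39 TPM) and *Irf1* (4.07 ± 1.12 TPM) changed places with genotype in their means, *Gbp2* having 2.93 ± 0.510 TPM in M-Z+ and 5.41 ± 0.529 TPM in M-Z- embryos and *Irf1* 3.79 ± 0.875 and 4.35 ± 1.34 TPM. *Irf1* was above *Isg15* in 10 embryos. *Isg15* (2.44 ± 2.00 TPM), *Gbp7* (2.16 ± 1.39 TPM) and *Gbp9* (1.65 ± 0.519 TPM) were not separated beyond the spread, *Isg15* being above *Gbp7* in 6 embryos and *Gbp7* being above *Gbp9* in 7 embryos. *Gbp3* was the lowest with 0.756 ± 0.306 TPM, below *Gbp9* in 12 of 12 embryos and above 2.14% of the tested genes. The transcription factors of the pathway were thus present throughout, and the guanylate-binding proteins were among the lower tested genes.

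*Gbp2* was higher in M-Z- embryos, and it was the gene among the 9 in which the genotypes did not overlap. The gene (chr3:142620602-142638008) had a lowest, median and highest level of 1.87, 2.25 and 3.22 CPM in M-Z+ embryos. In M-Z- embryos these values were 3.55, 4.28 and 4.78 CPM. The M-Z- embryo with the least *Gbp2*, replicate 5, was still above the M-Z+ embryo with the most, replicate 1. The means were 2.38 ± 0.495 CPM and 4.27 ± 0.479 CPM (SD, n = 6 each), a log2 fold change of 0.84 ± 0.16 (SE) or 1.79-fold. These levels rest on 27 to 64 reads per embryo, 552 in all. All 6 M-Z- embryos were above all 6 M-Z+ embryos for 48 of the 16026 tested genes, or 0.3%. Within genotypes the standard deviation of *Gbp2* was 0.23 on the log2 scale, smaller than that of 94.4% of the 771 tested genes of like count. This spread enters the comparison that was known when the genes were chosen, so it is a description and no separate support.

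**Figure D2:**
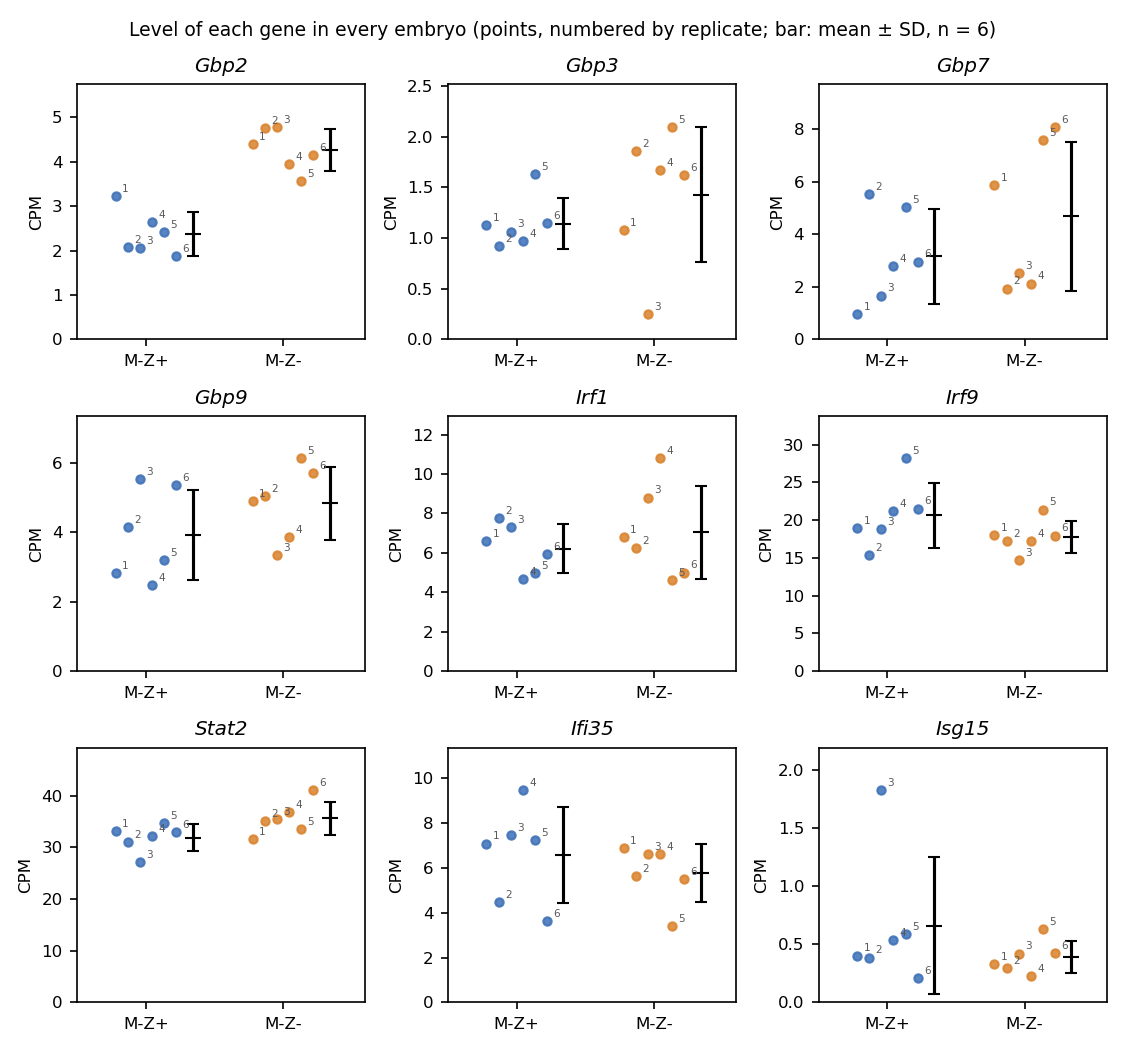
CPM of each of the 9 genes (y axis, starting at 0) in M-Z+ (blue) and M-Z- (orange) embryos, with points numbered by replicate and black bars for the mean ± SD of 6 embryos. The *Gbp2* points of the genotypes do not overlap, whereas those of the other 8 genes do, and *Isg15* has 1 high point, M-Z+ replicate 3.

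The other guanylate-binding protein genes had higher means in M-Z- embryos with overlapping values. *Gbp7* (chr3:142530342-142550149) had a lowest, median and highest level of 0.965, 2.88 and 5.54 CPM in M-Z+ embryos and of 1.93, 4.20 and 8.09 CPM in M-Z- embryos. It was the gene among the 9 with the widest spread within genotypes, 0.94 on the log2 scale, wider than that of 97.5% of 769 tested genes of like count. Replicates 2 and 5 of the M-Z+ embryos and replicates 1, 5 and 6 of the M-Z- embryos had at least 5.03 CPM, and the other 7 embryos had at most 2.97 CPM, so high and low embryos were found in both genotypes. The high embryos included some with *Xist* and some with *Ddx3y*. Its log2 fold change was 0.57 ± 0.45 (SE), and it was 0.16 when the gene length slope of each library was included in the fit. Without M-Z- replicate 5 or 6, which are among the high embryos, it was 0.37 or 0.33. It was 0.78 without M-Z+ replicate 2, which is also among them.

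*Gbp3* (chr3:142560026-142573209) was counted with 3 to 30 reads per embryo. Its lowest, median and highest levels were 0.924, 1.10 and 1.63 CPM in M-Z+ embryos and 0.252, 1.65 and 2.09 CPM in M-Z- embryos, where replicate 3 was far below the rest. The log2 fold change was 0.33 ± 0.34 (SE), with 0.54 in the fit without M-Z- replicate 3 and 0.18 without M-Z- replicate 5. *Gbp9* (chr5:105077630-105139539) had levels of 2.48, 3.68 and 5.55 CPM in M-Z+ embryos and of 3.36, 4.98 and 6.13 CPM in M-Z- embryos, with a log2 fold change of 0.30 ± 0.23 (SE), 0.10 with the gene length slope, 0.05 with 2 surrogate variables and 0.19 without M-Z+ replicate 4. The *Gbp9* entry shares 61910 bases with *Gbp8* and 23773 bases with *Gbp4*, so reads of these related genes could have been divided between them.

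All 12 table entries of the family lay in these clusters, 5 on chromosome 3 and 7 on chromosome 5, and 9 of them were tested. All 4 tested genes on chromosome 3 and 4 of the 5 tested entries on chromosome 5 had a log2 fold change above 0. Over all genes, 7733 of 16026 did. The family count includes *Gbp2*, *Gbp3*, *Gbp7* and *Gbp9*, which were chosen with this comparison known, so it is a description. *Gbp2b* (chr3:142594847-142619179), the gene just before *Gbp2*, averaged 1.15 ± 0.512 CPM for M-Z+ and 2.08 ± 0.394 CPM for M-Z- embryos, with a log2 fold change of 0.84 ± 0.28 (SE). Its values overlapped between genotypes, and it did not pass the quasi-likelihood test of edgeR after Benjamini-Hochberg adjustment (adjusted p = 0.702). The remaining entries of the family had log2 fold changes between -0.14 (an entry of *Gbp6*) and 0.33 (*Gbp8*), with edgeR adjusted p from 0.753 to 0.910. *Gbp5*, *Gbp10* and *Gbp11* had 75 to 117 reads in all 12 embryos together and were not tested. The share of reads that these closely related genes lost to one another is not known.

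The transcription factor genes overlapped between genotypes, with log2 fold changes of both signs. *Stat2* (chr10:128270576-128292849), a signal transducer of the type I response, had a lowest, median and highest level of 27.2, 32.6 and 34.7 CPM in M-Z+ embryos and of 31.6, 35.3 and 41.1 CPM in M-Z- embryos. It varied least among embryos, with a standard deviation of 0.12 on the log2 scale within genotypes, and its log2 fold change was 0.16 ± 0.08 (SE), or 0.11 without M-Z- replicate 6. *Irf9* (chr14:55603571-55610030), the DNA-binding subunit of that complex, ranged from 15.3 to 28.2 CPM around a median of 20.03 CPM in M-Z+ embryos and from 14.7 to 21.4 CPM around 17.6 CPM in M-Z- embryos. It was the highest in M-Z+ replicate 5, and its log2 fold change of -0.22 ± 0.13 (SE) had the sign opposite to that of *Stat2*. It was -0.12 without that embryo and -0.09 with 2 surrogate variables. Its entry shares 123 bases with *Rnf31*.

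*Irf1* (chr11:53770014-53778374), a factor induced by interferon-gamma that itself activates guanylate-binding protein genes, had levels of 4.68, 6.26 and 7.77 CPM in M-Z+ embryos and of 4.60, 6.53 and 10.8 CPM in M-Z- embryos. The M-Z- range enclosed the M-Z+ range, and the log2 fold change was 0.18 ± 0.21 (SE). It was 0.02 without M-Z- replicate 4, 0.11 when M-Z- replicate 3 or M-Z+ replicate 4 was left out, and 0.07 with 2 surrogate variables. The embryos with the most *Irf1*, M-Z- replicates 3 and 4, had 4.78 and 3.95 CPM of *Gbp2*, within an M-Z- range of 3.55 to 4.78 CPM. Centred within genotype, *Irf1* and *Gbp2* had a Pearson's r of 0.02 among embryos (permutation p = 0.950). This r was -0.28 among M-Z+ embryos alone and 0.35 among M-Z- embryos alone. Whether *Irf1* acts on *Gbp2* in these embryos was not tested.

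*Ifi35* (chr11:101448407-101458698), which encodes an interferon-induced leucine zipper protein, had levels of 3.64, 7.17 and 9.47 CPM in M-Z+ embryos and of 3.42, 6.13 and 6.89 CPM in M-Z- embryos. Its log2 fold change was -0.18 ± 0.23 (SE), and its sign turned with the gene length slope, to 0.14, and with 2 surrogate variables, to 0.08. With single embryos left out it lay between -0.32, when M-Z+ replicate 6 was dropped, and -0.05, when M-Z+ replicate 4 was dropped. It was -0.28 without M-Z+ replicate 2 and -0.08 on leaving out M-Z- replicate 5. *Isg15* (chr4:156199424-156200818), a ubiquitin-like protein that is attached to other proteins after interferon, was counted with 3 to 24 reads per embryo, 88 in all. M-Z+ replicate 3 had 1.82 CPM, and the rest of its genotype had 0.208 to 0.588 CPM. The M-Z- embryos had 0.228 to 0.627 CPM with a median of 0.376 CPM. The log2 ratio of the mean CPM, M-Z- over M-Z+, was -0.76 over all embryos and -0.13 without that embryo, so the difference in means rested on it.

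Over the 8 tested genes the median log2 fold change was 0.24, with 6 above 0, where the median over all tested genes was -0.01. The calls required an adjusted p under 0.05 together with a log2 difference of more than 0.5, up or down. The edgeR fit called 0.0811% of all tested genes, namely 13, and none of the 8. DESeq2 called 0.201% of 19933 genes, *Gbp2* among them, and so did edgeR with 2 surrogate variables (0.193% of 16026 genes) and with the gene length slope (0.144%). Since the genes were chosen with this comparison known, neither their median and signs nor these calls are evidence for them.

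Macrophages and vascular endothelium are known to express guanylate-binding proteins, and most markers of both had a higher mean in M-Z- embryos without being called. All 10 macrophage markers had a log2 fold change above 0 (median 0.21), where 7733 of all 16026 tested genes did. Their summed level was 162 to 225 CPM (mean 188) for M-Z+ and 196 to 271 CPM (mean 230) for M-Z- embryos. The mannose receptor gene *Mrc1*, one of them and named after its values were seen, had 50.3 ± 8.32 CPM and 75.1 ± 3.94 CPM. Of the 10 macrophage markers it was the 1 without overlap between genotypes, and its edgeR adjusted p was 0.0535. Over all tested genes, 0.3% had every M-Z- embryo above every M-Z+ embryo. Much of the difference between the mean sums was that of *Mrc1*. Of 8 endothelial markers 6 were above 0 (median 0.08), with summed levels of 425 to 483 CPM and 453 to 538 CPM. Other leukocyte markers summed to 60.8 to 96.3 CPM and 63.2 to 95.3 CPM, with the natural killer cell gene *Ncr1* at 0 in every library, and 5 of 6 placental and decidual markers were at 0. Markers of other cells ran the other way. Log2 fold changes were below 0 for 5 of 7 tested markers of other leukocytes (median -0.06), 7 of 8 of hepatocytes (median -0.24) and 6 of 6 of erythroid cells (median -0.15). The edgeR fit called no marker in these lists. The part of these cells in the level of *Gbp2* was not tested, and in whole embryos more cells of a type cannot be told apart from more RNA per cell.

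The rest of the pathway was read from lists of 107 genes in 108 table entries, of which 76 were tested. Neither edgeR nor DESeq2 called any of these 76, where they called 0.0811% and 0.201% of all genes tested. At an unadjusted p below 0.05 and the same fold limit edgeR passed 2 of 76, *Gbp2b* and *Usp18*, or 2.63%, beside 1.54% of all tested genes, and without the fold limit 6 of 76, or 7.89%, beside 6.70%. The log2 fold change was above 0 for 36 and below 0 for 40, with a median of -0.01 that equalled the median of all tested genes at this precision. For no tested gene of the lists did the genotypes fail to overlap, where 0.3% of all tested genes had every M-Z- embryo above every M-Z+ embryo. Among 76 entries, none called and none without overlap are near the shares over all genes.

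**Figure D3:**
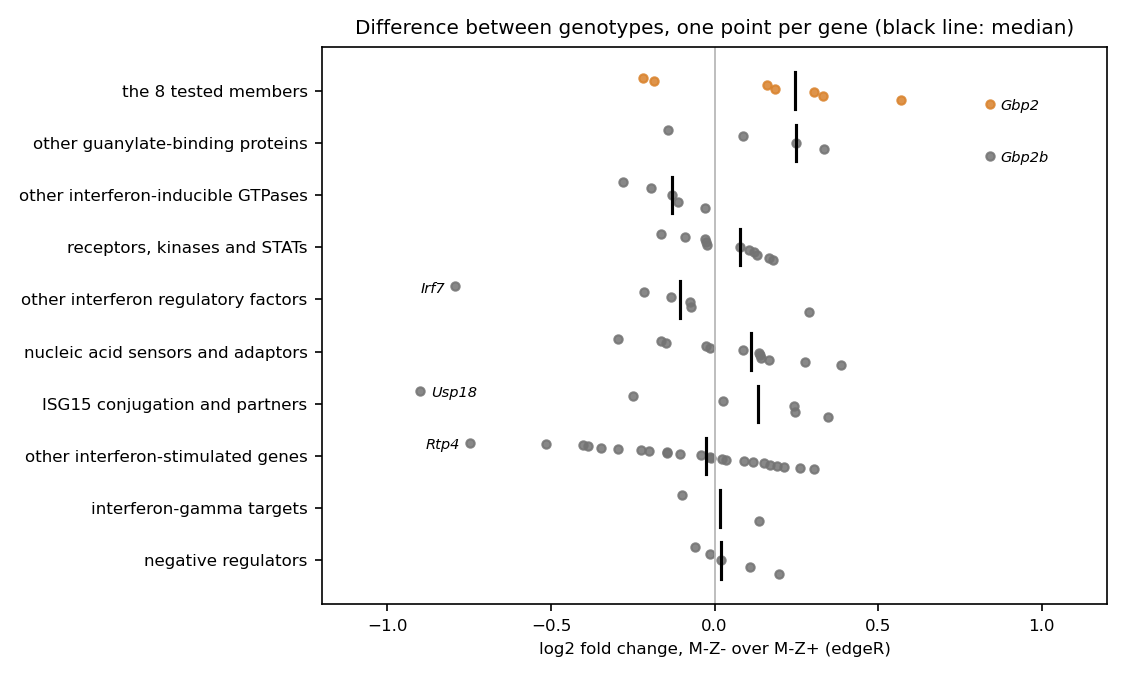
Log2 fold change, M-Z- over M-Z+ (x axis), of the 8 tested genes described here (orange) and of the 76 tested pathway entries by list (grey, 1 point per entry), with black lines for medians. *Gbp2* and *Gbp2b* are at 0.84, *Usp18* is at -0.90, and the medians of the lists lie between -0.13 and 0.25.

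Interferon ligands were not detectable at this depth. Of 9 ligand genes, 8 had no count in any of the 12 embryos and the other had 1 read in its highest library. A count of 0 allows up to 3 reads, or 0.156 to 0.252 CPM depending on the library, for counting error only. The receptors, kinases and STATs were all tested, 11 of 11, and none was called. The highest log2 fold change among them was 0.18 ± 0.15 (SE) for *Il10rb*, a subunit of the type III interferon receptor, with an edgeR adjusted p of 0.763. The type I receptor subunit *Ifnar1*, chosen after its values were seen, was well expressed at 112 ± 10.7 CPM for M-Z+ and 122 ± 3.08 CPM for M-Z- embryos, as was the kinase *Jak1* at 164 ± 15.8 and 184 ± 9.71 CPM. Transcripts of the receptor and its kinase were thus read in every embryo.

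Among the other interferon regulatory factors, 6 of 7 were tested. *Irf7*, the main amplifier of type I interferon production, had the lowest log2 fold change, -0.79 ± 0.50 (SE), and *Irf5* the highest, 0.29 ± 0.13 (SE). Of the sensors and adaptors 12 of 13 were tested, from *Ticam1* at -0.29 to *Tlr7*, a receptor for single-stranded RNA, at 0.39. Among the negative regulators the log2 fold changes ran from -0.06 for *Socs1* to 0.20 for *Ptpn6*. In each of these lists the edgeR adjusted p of the genes named was between 0.745 and 0.946.

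The other effector genes had log2 fold changes of both signs. All 5 tested members of the other interferon-inducible GTPases, which like the guanylate-binding proteins act on pathogen vacuoles, had log2 fold changes below 0, from -0.28 for *Igtp* to -0.03 for *Irgm1*, and none was called. *Usp18*, the protease that removes ISG15 from its targets, averaged 2.37 ± 0.826 CPM for M-Z+ and 1.26 ± 0.419 CPM for M-Z- embryos, a log2 fold change of -0.90 ± 0.29 (SE) with an edgeR adjusted p of 0.685. *Ube2l6*, the conjugating enzyme of ISG15, was at 0.35 ± 0.23 (SE). Of 34 other interferon-stimulated genes 24 were tested, 10 above 0 and 14 below, between *Rtp4* at -0.75 and *Parp14* at 0.30. The interferon-gamma targets had 2 of 5 genes tested, *Cxcl10* at 0.14 and the immune checkpoint ligand gene *Cd274* at -0.10.

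A single M-Z+ embryo held the highest level of many of these genes. Of the 76 tested pathway entries, 18 were highest in M-Z+ replicate 3, or 23.7%, where 9.41% of all tested genes were highest in that embryo. They included *Irf7*, *Bst2*, which encodes tetherin, *Ifi44*, *Oasl2*, *Cmpk2*, *Uba7* and the GTPase genes *Irgm1*, *Irgm2* and *Igtp*. *Irf7* had 4.33 CPM in this embryo and 0.520 to 2.81 CPM in the rest of its genotype. *Bst2* had 11.8 CPM against 2.81 to 9.10 CPM. *Oas2*, which was not tested, had 1.44 CPM (19 reads) against 0.0805 to 0.364 CPM (1 to 7 reads), and M-Z- embryos had up to 0.774 CPM of it. M-Z+ replicate 3 also had the most *Isg15* of all 12, whereas its *Gbp2* (2.05 CPM) was the second lowest and its *Stat2* (27.2 CPM) the lowest. Without it the log2 fold change was -0.32 for *Irf7*, -0.19 for *Bst2* and -0.82 for *Usp18*, and it was 0.81 for *Gbp2*. The embryo was also the one that lacked both *Xist* and *Ddx3y* as described above, and a link between these values was not tested. *Bst2*, *Oas2* and the embryo itself were chosen after their values were seen. Other pathway genes, *Rtp4*, *Xaf1* and *Usp18* among them, were highest in M-Z+ replicate 5. That embryo held 11.8% of the pathway entries and 11.3% of all tested genes.

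**Figure D4:**
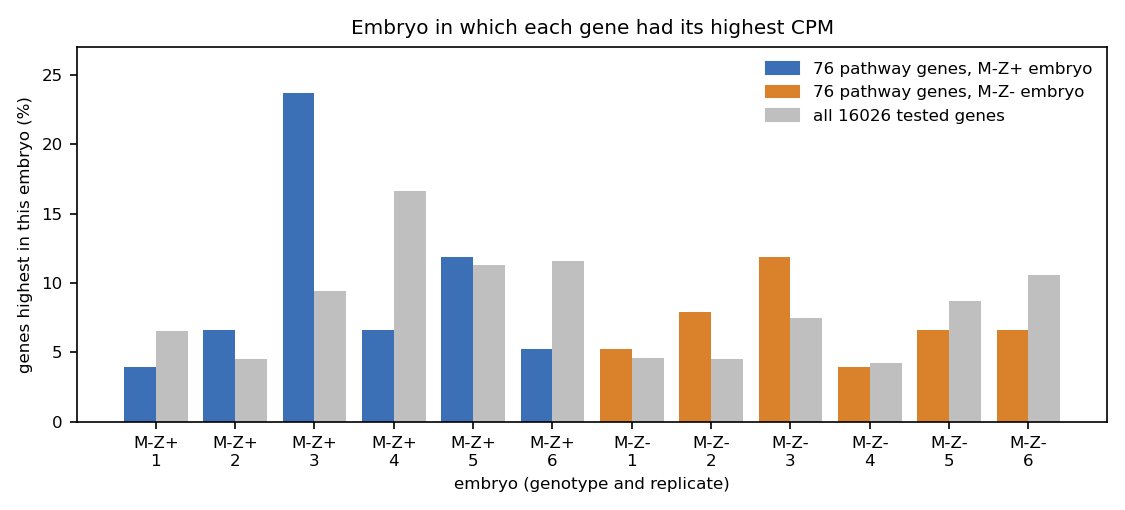
Share of genes (y axis, percent) whose highest CPM fell in each of the 12 embryos (x axis), for the 76 tested pathway entries (blue for M-Z+, orange for M-Z-) and for all 16026 tested genes (grey). M-Z+ replicate 3 holds 23.7% of the pathway entries and 9.41% of all genes.

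Whether the 9 genes moved together among embryos of one genotype was asked apart from the difference between genotypes. The values that chose the genes are not spelled out, and it is assumed that covariation within a genotype was not among them. Log2 CPM values were centred within each genotype, and all 36 pairs were compared over the 12 embryos with permutation within genotype. Of the 36 Pearson correlations, 17 were above 0, with a median of -0.03, and none passed the Benjamini-Hochberg adjustment over the 36 pairs, where 5 had an unadjusted permutation p below 0.05. None of the Spearman correlations passed it either, where 3 had an unadjusted p below 0.05. The correlations of the members with all tested genes had a median of -0.0014. With the gene length slope of each library removed, 19 of the 36 Pearson correlations were above 0, with a median of 0.02. They then ran from -0.75 to 0.57, and none passed.

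The pairs with the lowest p were of both signs. *Gbp2* and *Gbp9* ran in opposite directions, with Pearson's r = -0.76 (permutation p = 0.0124, adjusted 0.149), Spearman's rho = -0.84 (permutation p = 0.00335, adjusted 0.0603), and r = -0.71 without the 2 embryos farthest from the median of *Gbp2*. *Irf1* and *Irf9* also ran in opposite directions, with r = -0.67 (permutation p = 0.00667, adjusted 0.120), rho = -0.77 (permutation p = 0.00253, adjusted 0.0603), and r = -0.74 without 2 embryos. *Gbp3* rose with *Irf9*, with r = 0.58 (permutation p = 0.00533, adjusted 0.120), rho = 0.59 (permutation p = 0.0323, adjusted 0.388), and r = 0.50 without 2 embryos. *Gbp2* and *Ifi35* had r = 0.66 (permutation p = 0.0400, adjusted 0.288) and *Gbp9* and *Ifi35* had r = -0.67 (permutation p = 0.0376, adjusted 0.288). Without M-Z+ replicate 3 the last pair had r = -0.88 (permutation p = 0.00085, adjusted 0.0306) and was the single pair to pass. Of the 6 pairs of guanylate-binding protein genes, the 3 pairs among *Gbp3*, *Gbp7* and *Gbp9* had r from 0.22 to 0.39, and the 3 pairs with *Gbp2* had r from -0.76 to -0.26. None of these 6 passed the adjustment. Without 2 embryos r was -0.16 for *Gbp3* with *Gbp7* and -0.05 for *Gbp3* with *Gbp9*, whereas the rest of the 6 kept their sign.

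**Figure D5:**
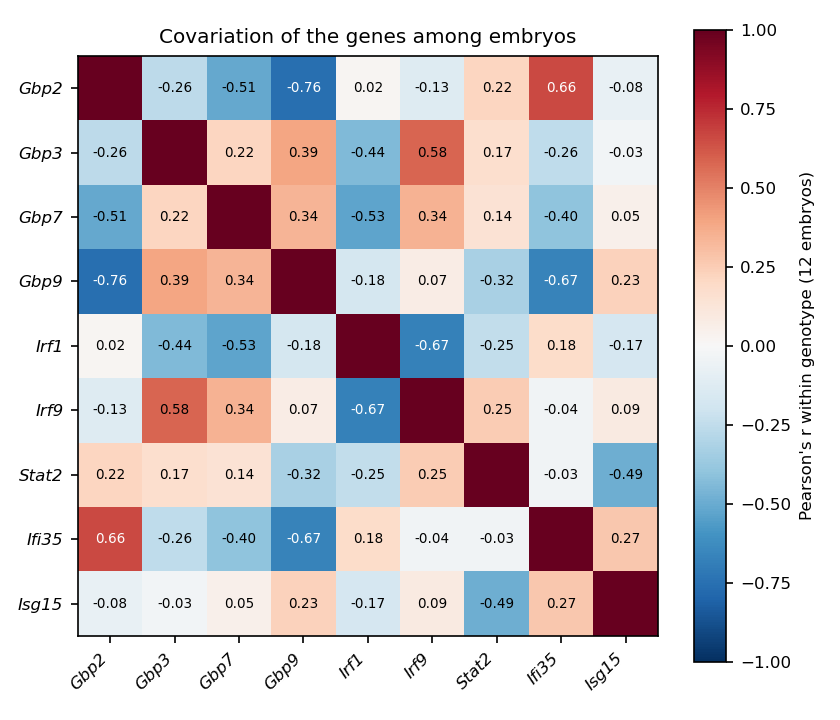
Pearson's r between the log2 CPM of each pair of the 9 genes over 12 embryos, centred within genotype (red above 0, blue below 0). Values run from -0.76 for *Gbp2* with *Gbp9* to 0.66 for *Gbp2* with *Ifi35*, and *Gbp2* is below 0 with each of *Gbp3*, *Gbp7* and *Gbp9*, which are above 0 with one another. No pair passed the Benjamini-Hochberg adjustment.

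The tested genes whose levels followed the mean of the 9 most closely, over the same 12 centred embryos, were *Gsap* (r = 0.87), *Slu7* (0.87), *Ccnc* (0.85), *Sun2* (0.85) and *Nr4a3* (0.85). None of them is in the pathway lists, and they are the highest of 16026 correlations. *Gbp7* alone, examined in this way after its spread among embryos was seen, was followed most closely by *Myom3* on chromosome 4 (r = 0.95), *Zfp959* on chromosome 17 (r = 0.94) and *Gm9870* on chromosome 5 (r = 0.92), and not by another guanylate-binding protein gene.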

How the data were processed

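RNA was measured in 6 M-Z+ and 6 M-Z- embryos, and groups and replicate numbers were taken from the sample labels. The authors deposited raw counts per gene, which were used for every test. The authors also deposited FPKM values, which equal these counts over 1 length per gene to within 0.1% and were used only for gene lengths and TPM. HISAT2 2.0.4 and mm10 are named per the labels, and the positions follow GRCm38. The methods of the paper describe STAR, mm9 and strand-specific counting with featureCounts for its own libraries. The labels of this table name another aligner and build, so those settings were not assumed for it, and reads of overlapping or closely related genes could have been divided or counted on either strand. The bisulfite libraries of this series were not analysed here.

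Embryos of one genotype differed beyond counting error in every pair, with a chi-square per degree of freedom from 7.08 to 92.8. The genes described, the pathway and marker lists and the tests were chosen with earlier results of these data known. The fits were made in R 4.3.3 by edgeR 4.0.16 (TMM, filterByExpr, glmQLFit and glmQLFTest), DESeq2 1.42.0 and sva 3.50.0, and Python 3.11.15 with matplotlib 3.10.9 for summaries and figures. P-values were adjusted by Benjamini-Hochberg over all tested genes. The standard error is the log2 fold change divided by the square root of F. Log2 CPM used a prior of 0.5 counts. Covariation was tested with 100000 permutations within genotype. The gene length slope is the slope of log2 level on log2 gene length in each library. Named from each list were every called gene and otherwise the tested genes with the highest and the lowest log2 fold change, and the 5 genes most like the mean of the 9, and 1 gene that this rule names is not reported here. Others were chosen after their values were seen, as stated. Genes of like count had a mean within 1.25-fold. On simulated counts edgeR recovered 89% of 200 changed genes with 10 false calls (15895 genes), and DESeq2 93% with 22 (16026 genes). The changed genes were simulated with log2 fold changes of 1 or more in either direction, larger than any seen in the 9 genes. Recovery at changes of the size seen in the 9 genes was not simulated, so these shares do not give it. The alternatives were DESeq2, its size factors, other filters, a replicate block, surrogate variables, the length slope, each embryo left out, the unadjusted p and no fold limit.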

Additional observations from a re-analysis of the deposited data

Results flagged for a closer look

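Each of the 9 genes was examined within each genotype for an embryo whose distance to its nearest neighbour took up more of the range of the 6 embryos than Dixon's critical share at 95%. In 18 such groups chance flags about 1 in 20, and 2 were found, both in M-Z+ embryos. *Isg15* was high in replicate 3, with 1.82 CPM against 0.208 to 0.588 CPM in the other 5 embryos. *Gbp3* was high in replicate 5, with 1.63 CPM against 0.924 to 1.14 CPM, at a depth of 3 to 30 reads per embryo.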

How the results depend on the processing

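The number of genes called over the whole table was 13 with edgeR, 40 with DESeq2, 31 with 2 surrogate variables, 23 with the gene length slope and 247 at the unadjusted p, and it lay between 11 and 15 when each embryo was left out in turn. Of the 9 genes 0 were called with edgeR and 1 (*Gbp2*) with DESeq2, with 2 surrogate variables and with the gene length slope, and 0 whichever embryo was left out. Of the pathway entries 2 passed at the unadjusted p and 0 under every other alternative. The median log2 fold change of those of the 9 genes that were tested (8 with edgeR) stayed above 0 under all 19 alternatives, between 0.15 and 0.28. It is a description, since the genes were chosen with this comparison known. The median of the pathway entries lay between -0.05 and 0.03, below 0 under 11 and above 0 under 8. The number of correlated pairs was 0, and 1 without M-Z+ replicate 3. The labels do not say that the replicate numbers pair the embryos. The deviations of embryos of the same number correlated with r from 0.0202 to 0.639, 5 of 6 above 0.1, and 2 of 6 numbers matched best with their own. *Ddx3y* was at 45.5 CPM or more in replicates 1, 2 and 6 of both genotypes. It was at 0.108 CPM or less in replicates 3, 4 and 5 of both. The numbers were not treated as pairs in the main fit, and a pairing is not excluded. The permutations within genotype did not take *Ddx3y* into account. With the replicate block 21 genes, 0 of the 9 genes and 0 pathway entries were called. The causes of these differences were not tested. Depth limits *Gbp3* and *Isg15* in particular, which had as few as 3 reads in an embryo.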
